A study of Homo sapiens with 12 samples.

Results

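The genes described here are 7 members of the tissue factor pathway, namely ADTRP (C6ORF105 on the array), F3, TFPI, TFPI2, THBD, F2R and F2RL1. They were taken by name from an Illumina HumanHT-12 v4 array, and every probe of each gene was kept, which gave 12 of 47228 probes for 7 of 34599 gene names. ADTRP was chosen by its mean change against the control hairpin on these same arrays, a log2 difference of 3.12 over both lines and both hairpins. The other 6 genes were added for their place in the pathway, with results of these arrays in view. Changes against the control hairpin are therefore given for the members as a description without a test. Other comparisons of the 6 added genes carry p-values, which for the same reason are no independent support. RNA came from MIA PaCa-2 and Capan-1, both established cell lines from human pancreatic ductal adenocarcinoma (PDAC). In each line there were 3 groups, which carried a scrambled control hairpin (shCtrl) or 1 of 2 hairpins against focal adhesion kinase (FAK), sh1209 and sh1319. The Capan-1 labels write the latter as shFAK1319, and both spellings were read as sh1319. All groups, the controls included, carried the PLKO.1 tet-on vector with puromycin resistance and received doxycycline at 50 ng/ml for 96 hours. Puromycin was used at 3.5 µg/ml in MIA PaCa-2 and at 1.5 µg/ml in Capan-1, so a difference between the lines cannot be told apart from one of puromycin dose. The labels do not say whether the transduced cells were clones or pools.

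There were 2 arrays in each of the 6 groups, all on 1 chip. Whether a group's 2 arrays were separate cultures is not stated, so the p-values measure the spread between these arrays, which may be technical. The median intensity of the 12 arrays lay between 87.7 and 97.0, and 16259 to 19814 probes an array had a detection p under 0.05, which is called detected below. Levels are normalized log2 intensities, and no level is set against that of another probe. All 9 epithelial markers examined were detected in every Capan-1 group. In MIA PaCa-2, 4 of 9 were detected in each group, and E-cadherin (CDH1) was in none of those sets. Of 10 endothelial markers 2 to 3 were detected in a group, and of 8 fibroblast markers 0 to 1. CDH5 was not detected in both arrays of any group, while SOX18 was in every group and ESAM in all but the FAK hairpin groups of MIA PaCa-2. PECAM1 was detected with both FAK hairpins in Capan-1 and ROBO4 with shCtrl in MIA PaCa-2. EMCN was detected with both FAK hairpins in MIA PaCa-2. Its brightest probe had means of 6.70 with sh1209 and 5.35 with sh1319 there, against 4.29 with shCtrl. The summed linear level of the endothelial list was 389 to 453 with shCtrl, 475 to 484 with sh1209 and 303 to 317 with sh1319 in MIA PaCa-2, and 276 to 316 over the Capan-1 arrays. That of the fibroblast list was 242 with shCtrl, 427 to 440 with sh1209 and 382 to 412 with sh1319 in MIA PaCa-2, where COL3A1 was the 1 gene detected, and 232 to 247 in Capan-1. Of 10 leukocyte and platelet markers 2 to 4 were detected in a group, CD68 and PPBP in every group and PTPRC in both arrays of none. LYZ was detected in all groups but shCtrl of MIA PaCa-2. In Capan-1 its brightest probe had means of 12.13 with shCtrl, 10.83 with sh1209 and 11.57 with sh1319. CD14 was detected with both FAK hairpins in MIA PaCa-2 and MS4A1 with sh1319 in Capan-1. The sum of the leukocyte and platelet list in Capan-1 was 5927 to 6353 with shCtrl, 3235 to 3331 with sh1209 and 4302 to 4599 with sh1319, and in MIA PaCa-2 it was 746 to 1075. The epithelial sum in MIA PaCa-2 was 2098 to 2147 with shCtrl, 1600 to 1706 with sh1209 and 1102 to 1210 with sh1319, and in Capan-1 it was 21311 to 29038. The part of other cell types in the results was not tested.

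Tissue factor, the product of F3, is a membrane protein that binds coagulation factor VIIa and starts the clotting cascade. TFPI is the Kunitz-type inhibitor of that complex and of factor Xa, and ADTRP (androgen-dependent TFPI-regulating protein) is a membrane protein first described in endothelial cells as a regulator of TFPI. Clotting proteases also signal to cells through protease-activated receptors, among them PAR1 (F2R) and PAR2 (F2RL1), and thrombomodulin (THBD) turns thrombin towards the activation of protein C. Tissue factor is often produced by pancreatic carcinoma cells, which shed it on vesicles.

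The sequences upstream of the 3 genes that lead the comparisons, ADTRP, F3 and TFPI, are shown as those of the regulator, the initiator and the inhibitor. RefSeq promoter windows of GRCh38.p14 were at hand for 5 of 7 members, and the 250 bases before each gene's start are printed 5′ to 3′ on the gene's strand. Capitals mark matches, on either strand, to an AP-1 site (TGANTCA) or a GC box (GGGCGG), with a TEAD site (GGAATG) also searched. The 3 motifs do not overlap each other in these windows.
ADTRP, chr6:11778804-11779053, minus strand: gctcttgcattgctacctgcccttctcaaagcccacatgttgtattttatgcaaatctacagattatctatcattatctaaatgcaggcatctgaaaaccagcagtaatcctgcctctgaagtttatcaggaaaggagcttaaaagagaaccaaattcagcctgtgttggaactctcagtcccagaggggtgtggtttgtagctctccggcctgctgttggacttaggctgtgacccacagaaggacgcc
F3, chr1:94541760-94542009, minus strand: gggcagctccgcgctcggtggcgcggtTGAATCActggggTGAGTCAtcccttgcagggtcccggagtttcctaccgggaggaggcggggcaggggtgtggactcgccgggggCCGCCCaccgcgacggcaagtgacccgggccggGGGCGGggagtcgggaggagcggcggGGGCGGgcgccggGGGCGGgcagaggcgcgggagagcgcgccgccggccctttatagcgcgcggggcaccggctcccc
TFPI, chr2:187554436-187554685, minus strand: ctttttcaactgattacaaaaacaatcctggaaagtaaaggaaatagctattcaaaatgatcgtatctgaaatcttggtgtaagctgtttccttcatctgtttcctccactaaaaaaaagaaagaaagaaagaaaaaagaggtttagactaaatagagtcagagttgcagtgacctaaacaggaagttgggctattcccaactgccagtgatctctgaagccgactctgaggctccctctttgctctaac
The F3 window held 2 AP-1 matches, at 223 and 210 bases before the start, and 4 GC boxes, with a GC content of 78%. The ADTRP and TFPI windows held none of the 3 motifs and had a GC content of 46.4% and 38.4%. Over 35116 windows of the same length, 6.57% held the AP-1 motif, 42.6% the GC box and 11.9% the TEAD motif. The TFPI2 window held 1 AP-1 match and 2 GC boxes, and that of F2RL1 held 2 GC boxes and 1 TEAD match. A match is a string of letters and not a measured site.

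FAK is encoded by PTK2, and its probe 450253 was checked first. In MIA PaCa-2 its level was 9.45 and 9.46 with shCtrl, 7.28 and 7.14 with sh1209, and 6.92 and 7.03 with sh1319. Capan-1 had 10.35 and 10.17 with shCtrl, 9.66 and 9.63 with sh1209, and 8.48 and 8.49 with sh1319. Every FAK hairpin array lay below both shCtrl arrays of its line, and PTK2 was least reduced by sh1209 in Capan-1, where the log2 change was -0.61 (SE 0.11, adjusted p = 0.0036 by limma). With arrays scaled to their median instead of quantile-normalized, that change was -0.42 with an adjusted p of 0.23. The other 3 log2 changes were -2.24 and -2.48 in MIA PaCa-2 and -1.78 with sh1319 in Capan-1. The second PTK2 probe, 2680750, was detected in 11 of 12 arrays at 4.54 to 6.03, not far above background. By it PTK2 was not shown to be lower, with log2 changes of 0.31 and -0.29 in MIA PaCa-2 and of -0.46 with both hairpins in Capan-1 (adjusted p = 0.080 to 0.25).

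**Figure D1:**
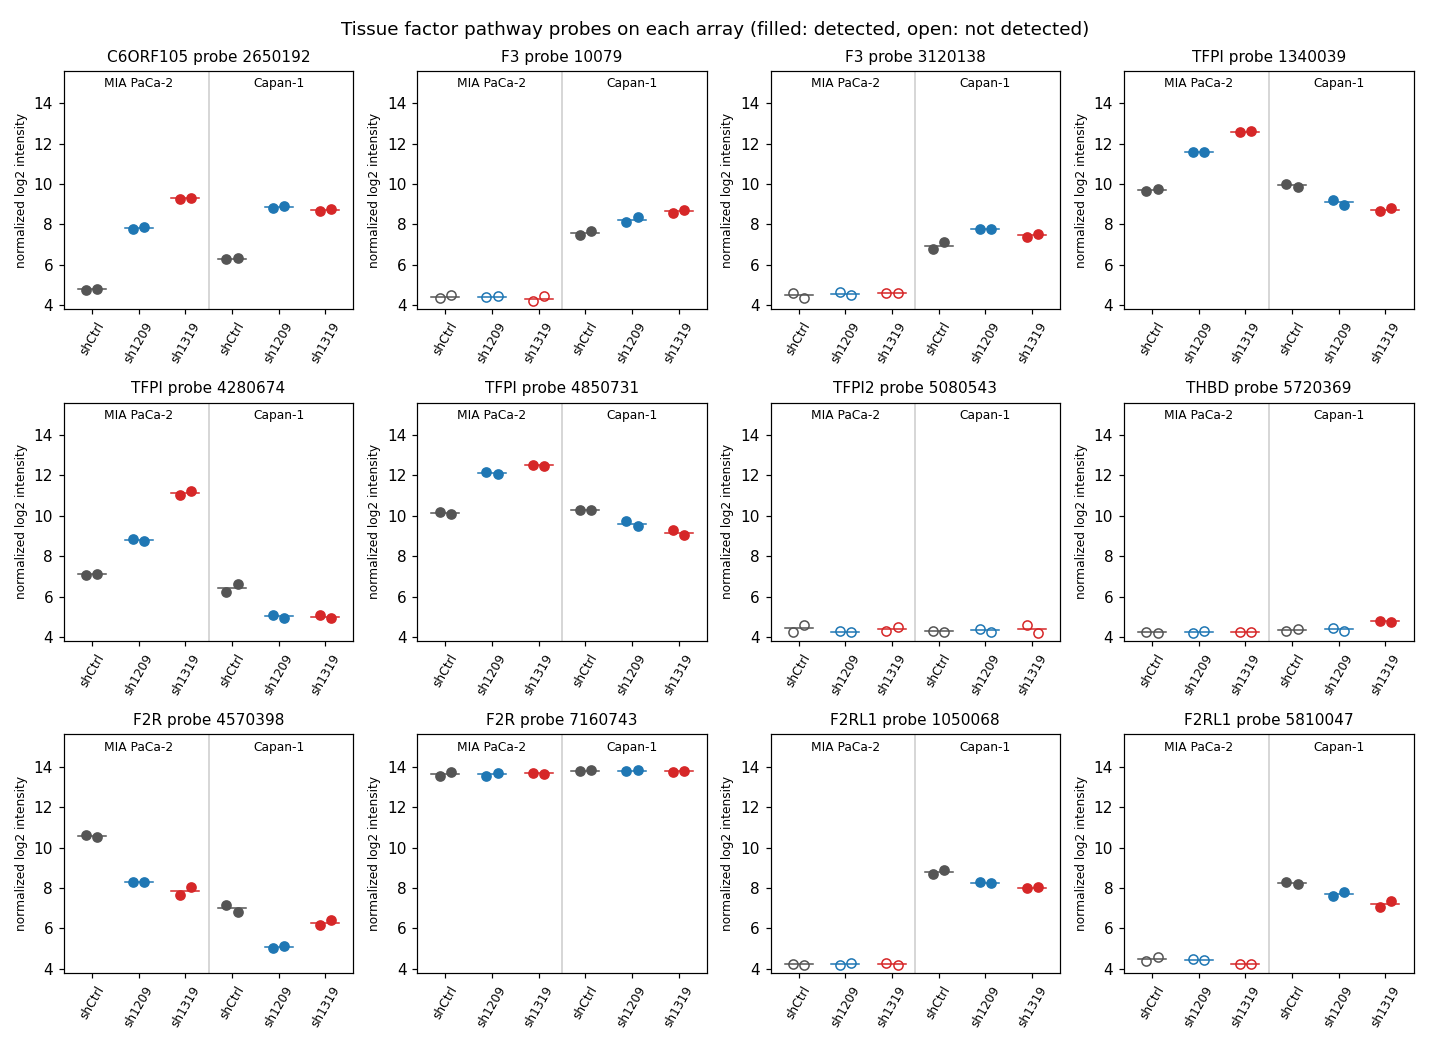
Normalized log2 intensity (y axis) of the 12 probes of the 7 genes, 1 panel a probe and 1 point an array, by hairpin and cell line (x axis), with a line at the mean of each group. Filled points were detected at p under 0.05 and open points were not. C6ORF105 stood higher with both FAK hairpins in both lines, the 3 TFPI probes higher in MIA PaCa-2 and lower in Capan-1, and F3 and F2RL1 were not detected in MIA PaCa-2.

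ADTRP was measured by a single probe, C6ORF105 2650192, which was detected in all 12 arrays and was higher with each FAK hairpin in both cell lines. In MIA PaCa-2 the level was 4.77 and 4.82 with shCtrl, 7.79 and 7.86 with sh1209, and 9.28 on both sh1319 arrays. On the deposited linear scale these were intensities of 96.0 and 99.1, then 247.3 and 303.8, then 653.3 and 824.7. The shCtrl arrays of MIA PaCa-2 were only just above background, with detection p-values of 0.034 and 0.031. In Capan-1 the level was 6.28 and 6.33 with shCtrl, 8.80 and 8.90 with sh1209, and 8.65 and 8.78 with sh1319. No FAK hairpin array overlapped the shCtrl arrays of its line. The share of all probes without such overlap was not counted, so nothing is read from it for this or any other gene.

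The log2 change of C6ORF105 against shCtrl was 3.03 (SE 0.11) with sh1209 and 4.48 (SE 0.11) with sh1319 in MIA PaCa-2, which is 8.16-fold and 22.4-fold. The Capan-1 values were 2.54 (SE 0.11) with sh1209 and 2.41 (SE 0.11) with sh1319, or 5.83-fold and 5.31-fold. These sizes depend on the background, since without background correction they were 1.58, 2.79, 1.81 and 1.70 in the same order. Bulk RNA cannot tell fewer cells of a kind from less RNA per cell, here or in any result below. The comparisons that follow are other than the mean change that chose the gene. They were still chosen with earlier results of these data known, so their p-values are no independent support. The hairpins differed in MIA PaCa-2, with sh1319 above sh1209 by 1.45 on the log2 scale (SE 0.11, adjusted p = 2.7e-06). In Capan-1 the difference was -0.14 (SE 0.11, adjusted p = 0.55). With shCtrl alone, Capan-1 exceeded MIA PaCa-2 by 1.51 (SE 0.11, adjusted p = 3.3e-07), and the mean response to the hairpins was smaller in Capan-1 by a log2 difference of -1.28 (SE 0.13, adjusted p = 7.2e-05). PTK2 itself, by probe 450253, was lower with sh1319 than with sh1209 in Capan-1, by a log2 difference of -1.16 (adjusted p = 6.2e-05). In MIA PaCa-2 that difference was -0.24 (adjusted p = 0.17). By PTK2 probe 2680750 it was 0.00 in Capan-1 and -0.59 in MIA PaCa-2 (adjusted p = 0.021 for the latter).

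F3, the gene of tissue factor, was measured by 2 probes and was detected in Capan-1 in all 6 arrays and in MIA PaCa-2 in none. Both probes therefore passed the detection filter only through Capan-1. The level of probe 10079 in Capan-1 was 7.47 and 7.67 with shCtrl, 8.11 and 8.34 with sh1209, and 8.55 and 8.73 with sh1319. That of probe 3120138 was 6.77 and 7.13 with shCtrl, 7.77 and 7.79 with sh1209, and 7.40 and 7.50 with sh1319. On both probes every FAK hairpin array of Capan-1 lay above both shCtrl arrays, but the probes put the hairpins in opposite order. In MIA PaCa-2 the levels lay between 4.22 and 4.64, at background, whatever the hairpin.

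In Capan-1 the log2 change of F3 against shCtrl was 0.65 (SE 0.14) with sh1209 and 1.07 (SE 0.14) with sh1319 by probe 10079, or 1.57-fold and 2.10-fold. Probe 3120138 gave 0.83 (SE 0.14) and 0.50 (SE 0.14), or 1.78-fold and 1.41-fold. The latter value ranged from 0.32 to 0.68 when one or the other shCtrl array of Capan-1 was left out. The 2 hairpins did not pass the test of their difference on either probe, at 0.41 (SE 0.14, adjusted p = 0.079) and -0.33 (SE 0.14, adjusted p = 0.19). Without background correction both differences passed, at adjusted p-values of 0.0053 and 0.036, still with opposite signs. With shCtrl, Capan-1 was at least 7.28-fold above MIA PaCa-2 by probe 10079 and at least 4.73-fold by probe 3120138. No p-value is given, since the filter kept these probes for their Capan-1 arrays alone. The folds are lower bounds, set against the lowest signal among detected probes of each MIA PaCa-2 array, because F3 was not detected there.

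TFPI, the inhibitor of the tissue factor complex, was measured by 3 probes that were detected in all 12 arrays, and all 3 were higher with the FAK hairpins in MIA PaCa-2 and lower in Capan-1. The level of probe 1340039 in MIA PaCa-2 was 9.65 and 9.77 with shCtrl, 11.57 and 11.58 with sh1209, and 12.57 and 12.59 with sh1319. In Capan-1 the same probe was at 10.02 and 9.85, then 9.23 and 8.95, then 8.65 and 8.81. The 2 lines thus started close together and ended more than 3 log2 units apart with sh1319.

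The second probe, 4280674, had a level in MIA PaCa-2 of 7.07 and 7.12 with shCtrl, 8.87 and 8.73 with sh1209, and 11.03 and 11.21 with sh1319. Capan-1 had 6.21 and 6.60, then 5.10 and 4.94, then 5.10 and 4.93. The FAK hairpin levels of Capan-1 were near background on this probe, and those of the 2 hairpins overlapped.

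The third probe, 4850731, had a level in MIA PaCa-2 of 10.19 and 10.07 with shCtrl, 12.16 and 12.05 with sh1209, and 12.53 and 12.46 with sh1319. The Capan-1 levels were 10.29 and 10.27, then 9.73 and 9.49, then 9.28 and 9.06. On all 3 probes the FAK hairpin arrays did not overlap the shCtrl arrays of their own line.

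In MIA PaCa-2 the log2 change of TFPI against shCtrl with sh1209 was 1.87, 1.71 and 1.97 over probes 1340039, 4280674 and 4850731, with SEs of 0.13 to 0.15. With sh1319 it was 2.87, 4.03 and 2.37, or 7.33-fold, 16.3-fold and 5.16-fold. In Capan-1 the log2 change with sh1209 was -0.85, -1.39 and -0.67, and with sh1319 it was -1.20, -1.39 and -1.11. The last set corresponds to levels 2.30-fold, 2.62-fold and 2.16-fold lower. Without background correction the Capan-1 changes of probe 4280674 were -0.59 with both hairpins. The probes' positions in the transcript are not given in the files, so they could not be assigned to isoforms of TFPI.

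TFPI was added with results of these arrays in view, so the p-values that follow are no independent support. The difference of the mean hairpin response between the lines passed the threshold on every TFPI probe. It was -3.40 (SE 0.16, adjusted p = 1.2e-07), -4.26 (SE 0.18, adjusted p = 7.8e-08) and -3.06 (SE 0.16, adjusted p = 2.6e-07) on the log2 scale for Capan-1 minus MIA PaCa-2. The adjusted p-values remained at or below 8e-06 under the alternative limma fits. The methods' t-test was not run for this difference. In MIA PaCa-2 sh1319 was above sh1209 by 1.01 (adjusted p = 0.00016), 2.32 (adjusted p = 7.8e-07) and 0.39 (adjusted p = 0.045), the latter lost in 8 of the 12 fits that left out 1 array. In Capan-1 the hairpins differed by -0.35 (adjusted p = 0.11), 0.00 (adjusted p = 0.99) and -0.44 (adjusted p = 0.046), and the last was lost whichever array was left out. With shCtrl the lines differed by 0.23 (adjusted p = 0.19), -0.69 (adjusted p = 0.0024) and 0.15 (adjusted p = 0.39). The second of these was -0.47 with an adjusted p of 0.084 when arrays were scaled to their median.

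TFPI2, a second Kunitz-type inhibitor that is found in the extracellular matrix, was not detected in any array. Its probe 5080543 had levels of 4.21 to 4.61, it did not pass the filter, and it was not tested. THBD, the thrombin cofactor, was detected in the 2 Capan-1 arrays with sh1319 and in none of the other 10 arrays, and it passed the filter through that group. Its probe 5720369 was at 4.80 and 4.75 there and between 4.19 and 4.46 elsewhere. The Capan-1 level with sh1319 was at least 1.13-fold above that with shCtrl and at least 1.14-fold above that with sh1209. These bounds carry no p-value, since the probe was tested only because of that group.

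**Figure D2:**
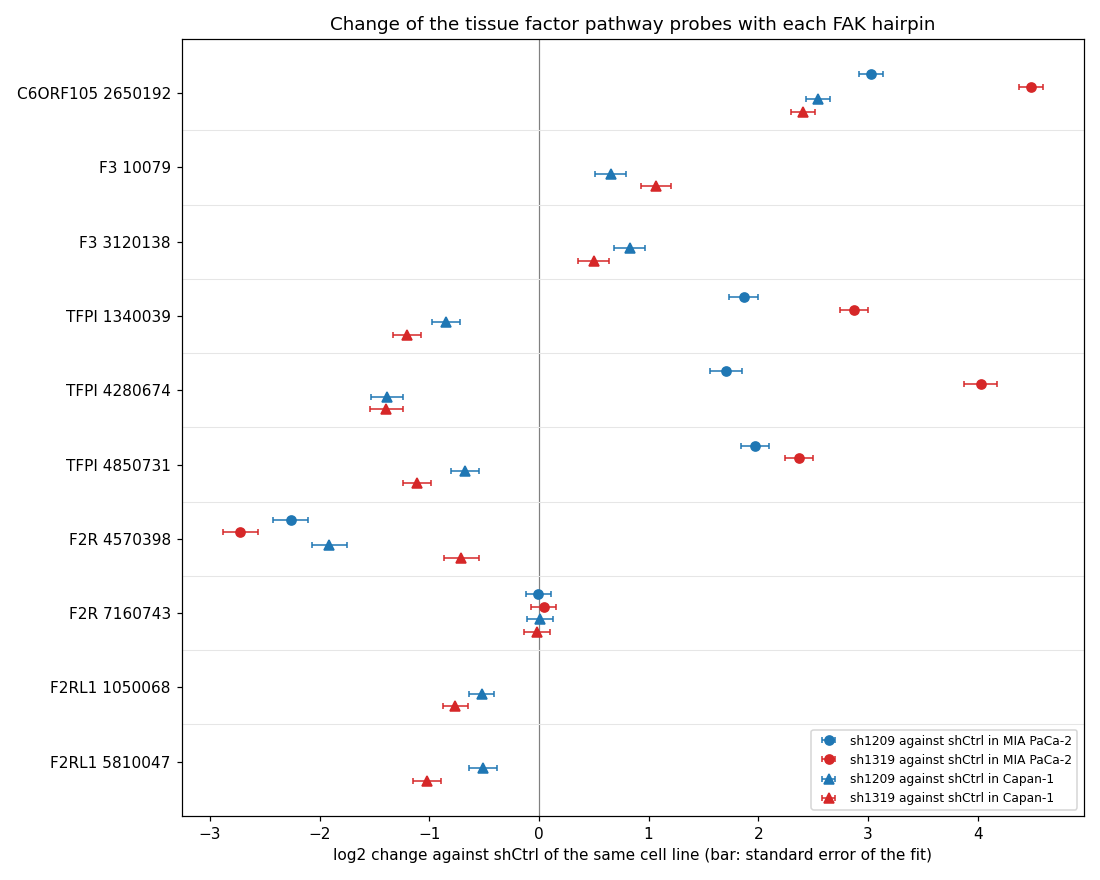
Log2 change against the shCtrl of the same cell line (x axis) for the probes of C6ORF105, F3, TFPI, F2R and F2RL1 (y axis), with the standard error of the fit as bars. Circles are MIA PaCa-2, triangles Capan-1, blue sh1209 and red sh1319, and points are left out where neither group was detected. C6ORF105 lay between 2.41 and 4.48 in all 4 pairs, and the TFPI probes lay on opposite sides of 0 in the 2 cell lines.

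The thrombin receptor PAR1, encoded by F2R, had 2 probes that gave different pictures. Probe 4570398 was at 10.62 and 10.53 with shCtrl in MIA PaCa-2, at 8.31 and 8.32 with sh1209, and at 7.66 and 8.04 with sh1319. The Capan-1 levels were 7.16 and 6.83 with shCtrl, 5.03 and 5.14 with sh1209, and 6.15 and 6.43 with sh1319. By this probe F2R was lower in every FAK hairpin array than in both shCtrl arrays of its line. Probe 7160743 lay between 13.54 and 13.85 in all 12 arrays, above 99.8% of probes in each, and its 4 log2 changes against shCtrl were between -0.02 and 0.04 (SE 0.12).

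The log2 change of probe 4570398 against shCtrl was -2.26 (SE 0.16) with sh1209 and -2.72 (SE 0.16) with sh1319 in MIA PaCa-2, or 4.80-fold and 6.61-fold lower. The Capan-1 values were -1.91 (SE 0.16) with sh1209 and -0.71 (SE 0.16) with sh1319, or 3.77-fold and 1.63-fold lower. The Capan-1 values were smaller without background correction, at -0.92 and -0.41. The hairpins differed in Capan-1, where sh1319 was above sh1209 by 1.21 (SE 0.16, adjusted p = 0.00058). In MIA PaCa-2 they differed by -0.46 (SE 0.16, adjusted p = 0.060), and this passed without background correction, at an adjusted p of 0.0045. With shCtrl, Capan-1 was below MIA PaCa-2 by a log2 difference of -3.58 (SE 0.16, adjusted p = 4.4e-09). The mean hairpin response differed between the lines by 1.18 (SE 0.20, adjusted p = 0.0020), being weaker in Capan-1. For probe 7160743 the adjusted p of these 4 comparisons lay between 0.28 and 0.94. The intensity of probe 7160743 was 10505 to 16229, where the highest of any probe on an array was 14798 to 19275, so a limit of the scale at this brightness cannot be told apart from a lack of change. The probes' positions are not in the files.

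PAR2, encoded by F2RL1 and cleaved by the tissue factor complex and by trypsin, was detected in all 6 Capan-1 arrays and in none of MIA PaCa-2, and its 2 probes passed the filter only through Capan-1. Probe 1050068 was at 8.69 and 8.89 with shCtrl, 8.30 and 8.23 with sh1209, and 7.99 and 8.06 with sh1319. Probe 5810047 was at 8.28 and 8.18 with shCtrl, 7.62 and 7.82 with sh1209, and 7.08 and 7.33 with sh1319. Both probes gave the same order of the 3 groups in Capan-1, with no overlap between them. The log2 change against shCtrl was -0.52 (SE 0.11) with sh1209 and -0.76 (SE 0.11) with sh1319 by probe 1050068. By probe 5810047 it was -0.51 (SE 0.13) and -1.02 (SE 0.13), or 1.42-fold and 2.03-fold lower.

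The difference between the hairpins in Capan-1 was -0.24 (SE 0.11, adjusted p = 0.23) for F2RL1 probe 1050068 and -0.51 (SE 0.13, adjusted p = 0.026) for probe 5810047. The second value did not pass without either sh1209 array, without replicate 1 of sh1319, or with median scaling, where it was -0.47 with an adjusted p of 0.26. Median scaling also moved the changes against shCtrl, to -0.28 and -0.51 for probe 1050068 and to -0.25 and -0.72 for probe 5810047. With shCtrl, Capan-1 was above MIA PaCa-2 by at least 16.9-fold on probe 1050068 and at least 11.5-fold on probe 5810047, given without a p-value because the filter kept both probes for Capan-1 alone. Of the 2 receptors, F2R by probe 4570398 was thus the higher in MIA PaCa-2 and F2RL1 the higher in Capan-1, each compared between lines within its own probe.

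Of the 11 member probes tested, 7 differed between the lines with shCtrl, against 42.1% of all probes, but 4 of the 7, those of F3 and F2RL1, passed the filter through Capan-1 alone and nothing is read from the count. Between the hairpins, 4 differed in MIA PaCa-2, against 22.6% of all probes, and 4 in Capan-1, against 11.3%, where THBD is 1 of the 4 and entered only through sh1319. The count in Capan-1 was 1 to 2 when any array was left out and 1 with median scaling. The mean hairpin response differed between the lines for 8 member probes, against 14.4% of all probes. F2RL1 and F3 belong to these 8 although they were not detected in MIA PaCa-2, so that for them the difference is that of a measured response from a background level. As the members were chosen with results of these arrays in view, nothing is read from these counts.

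The other genes of the pathway were taken from 5 lists of 70 names, which were drawn up with results of these data known. Their counts and p-values, here and below, are therefore a description and no support. On the array were 69 of the names, and 48 of them had 68 probes that passed the filter. With sh1209 in MIA PaCa-2, 21 of 68 probes passed the test, against 18% of all probes. Of these, 14 were higher and 7 lower, against 9.05% and 8.99% of all probes. With sh1319 in MIA PaCa-2, 29 passed, 22 higher and 7 lower, against 24.3% of all probes, or 12.2% and 12.1% by direction. In Capan-1, 22 passed with sh1209, 11 in each direction, against 16.8% of all probes, or 8.14% higher and 8.69% lower. With sh1319 there, 16 passed, 8 in each direction, against 13.7% of all probes, or 6.95% higher and 6.77% lower. The median log2 change of the 68 probes in these 4 pairs was 0.06, 0.18, 0.03 and -0.02, where that of all tested probes was 0.01, -0.01, -0.01 and 0.00. With median scaling the higher and lower counts were 10 and 2, 21 and 0, 11 and 6, and 8 and 1 in the same order. Fewer pathway probes were called lower under that scaling in each pair, and so were fewer of all tested probes. Over all probes the lower calls went from 2175 to 1101, 2923 to 1284, 2103 to 450 and 1640 to 334. The drop is therefore not particular to the pathway.

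**Figure D3:**
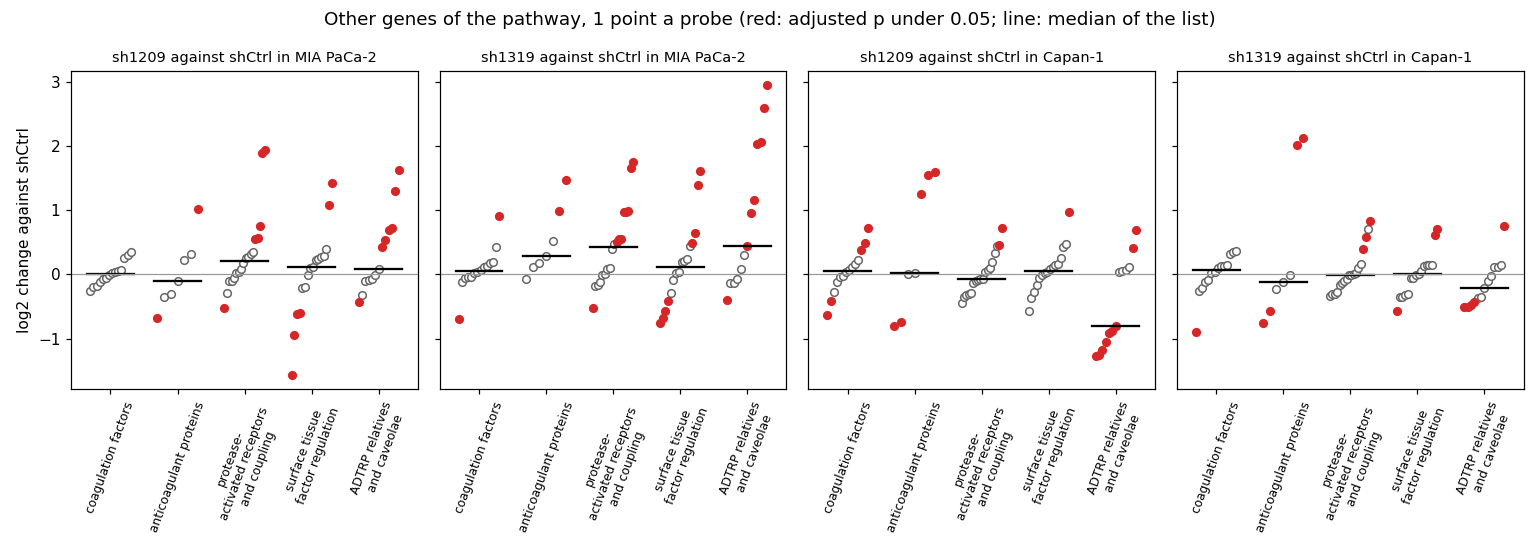
Log2 change against shCtrl (y axis) of each tested probe in the 5 lists of other pathway genes (x axis), 1 panel for each FAK hairpin and cell line. Red points had an adjusted p under 0.05 and the line is the median of the list. For the list of ADTRP relatives and caveolar genes, the MIA PaCa-2 medians were 0.09 (sh1209) and 0.45 (sh1319). Its Capan-1 medians were -0.80 (sh1209) and -0.22 (sh1319).

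The coagulation factors had 14 tested probes, of which 0 and 2 passed for the hairpins of MIA PaCa-2 and 5 and 1 for those of Capan-1. Those are 0%, 14.3%, 35.7% and 7.14%, against 18%, 24.3%, 16.8% and 13.7% of all probes. Of the 19 names only 10 had a probe above the filter. Of 5 hepatocyte markers 1, ALB, was detected, and their summed linear level was 492 to 547 with sh1319 in MIA PaCa-2 against 162 to 216 in all other groups. Of 7 probes of anticoagulant proteins, 2 passed for each hairpin of MIA PaCa-2, and 5 and 4 for those of Capan-1. Those are 28.6%, 28.6%, 71.4% and 57.1%, against the same shares of all probes. GAS6, a vitamin K-dependent ligand of the TAM receptors, rose in Capan-1 by 1.55 with sh1209 (adjusted p = 9.2e-06) and by 2.13 with sh1319 (adjusted p = 3e-06) on the log2 scale by probe 70730. Its second probe, 4280632, rose by 1.60 (adjusted p = 5.1e-05) and 2.02 (adjusted p = 2.4e-05). In MIA PaCa-2 the GAS6 values were between -0.35 and 0.29 and did not pass. ANXA5, which covers the phospholipid surface that clotting needs, rose in MIA PaCa-2 by 1.02 (adjusted p = 0.0002) and 0.99 (adjusted p = 0.00015) and stood at 0.00 and -0.02 in Capan-1 cells.

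PROCR, the endothelial protein C receptor, fell with sh1209 in MIA PaCa-2, with a log2 change of -0.68 (adjusted p = 0.016), and rose with sh1319 by 1.47 (adjusted p = 6.5e-05). In Capan-1 it fell with both, at -0.80 (adjusted p = 0.0071) and -0.75 (adjusted p = 0.012). The 3 decreases of PROCR did not pass with median scaling or without replicate 1 of the FAK hairpin concerned, nor did they without 1 shCtrl array of the line, replicate 2 in MIA PaCa-2 and replicate 1 in Capan-1, and that with sh1319 in Capan-1 was also lost without replicate 2 of sh1319. SERPINA5, the protein C inhibitor, was not detected in MIA PaCa-2. In Capan-1 it rose with sh1209 by 1.26 (adjusted p = 0.00014) and fell with sh1319, at -0.57 (adjusted p = 0.022), and the decrease was -0.30 with an adjusted p of 0.49 under median scaling. It was also lost without shCtrl replicate 2 or sh1319 replicate 1 of Capan-1.

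Of 18 probes for other protease-activated receptors and the proteins they couple to, 6 and 9 passed in MIA PaCa-2, with 5 and 8 of them higher. In Capan-1, 2 and 3 passed, all of them higher. The shares in this order were 33.3%, 50%, 11.1% and 16.7%, against 18%, 24.3%, 16.8% and 13.7% of all probes. F2RL2, the gene of PAR3, which is a cofactor receptor for thrombin, was detected in MIA PaCa-2 with the FAK hairpins and not with shCtrl. Its level there was 4.45 and 4.58 on the shCtrl arrays, 6.29 and 6.61 for sh1209, and 6.13 and 6.39 for sh1319. The FAK hairpin groups were higher by a factor of no less than 3.34 and 2.93, with no p-value given because F2RL2 passed the filter through these 4 arrays. F2RL2 was not detected in Capan-1. GNA11, a G protein alpha subunit that links such receptors to phospholipase C, rose in MIA PaCa-2 by 1.89 (adjusted p = 0.00029) and 1.66 (adjusted p = 0.00044), and its values in Capan-1, 0.33 and 0.70, did not pass. GNA12, another G protein alpha subunit, was detected by probe 4070259 in all 8 FAK hairpin arrays and in 1 of the shCtrl arrays. In MIA PaCa-2, where shCtrl was not detected, the lower bounds of its fold over shCtrl were 1.33 and 1.56, and its log2 changes in Capan-1 were 0.46 and 0.39, all close to background. The Capan-1 values did not pass without background correction, and that with sh1319 did not in any of the 12 fits that left out 1 array. Thus F2R by probe 4570398 was lower in MIA PaCa-2 where F2RL2 was higher, and both are thrombin receptors.

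Among 16 probes of genes that act on tissue factor at the cell surface, 6 and 8 passed for the hairpins of MIA PaCa-2, and 1 and 3 for those of Capan-1. Those are 37.5%, 50%, 6.25% and 18.8%, against 18%, 24.3%, 16.8% and 13.7% of all probes. SMPD1, the acid sphingomyelinase, was not detected with shCtrl in either line. In MIA PaCa-2 the lower bound of its fold over shCtrl was 1.67 under sh1209 and 2.07 under sh1319, and in Capan-1 it was 1.21 under sh1319, with no p-value because SMPD1 passed the filter through the FAK hairpin arrays. The integrin subunits were divided. ITGB4 by probe 3940132 rose in MIA PaCa-2, where shCtrl was not detected, by at least 2.03-fold and at least 2.29-fold. Limma's adjusted p-values, 0.00015 and 3.6e-05, are those of the fitted difference of means and not of these bounds. A second ITGB4 probe, 4490367, was near background there and fell by at least 1.19-fold and 1.16-fold. ITGA3 by probe 2000368 fell with sh1209 in MIA PaCa-2, at -1.56 (adjusted p = 2.9e-05), and was at 0.19 with sh1319 (adjusted p = 0.44).

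The list of ADTRP relatives and caveolar genes had 13 tested probes, of which 7 and 8 passed in MIA PaCa-2, with 6 and 7 higher, and 9 and 5 in Capan-1, with 7 and 4 lower. The shares passing were 53.8%, 61.5%, 69.2% and 38.5%, against 18%, 24.3%, 16.8% and 13.7% of all probes. Caveolin-1 and caveolin-2 form the coat of caveolae, the membrane pits in which TFPI and ADTRP have been found in endothelial cells. CAV1 by probe 1070215 was at 8.47 and 8.18 on the shCtrl arrays of MIA PaCa-2, 9.88 and 10.03 for sh1209, and 11.22 and 11.32 for sh1319. The Capan-1 levels were 9.02 and 8.98, then 7.94 and 7.70, then 8.79 and 8.78. It rose in MIA PaCa-2 by 1.63 (adjusted p = 8e-06) and 2.94 (adjusted p = 5.1e-08), fell with sh1209 in Capan-1, at -1.18 (adjusted p = 0.00013), and was at -0.22 with sh1319 there (adjusted p = 0.36). The second CAV1 probe, 5550379, gave 1.30, 2.58, -1.05 and -0.35 for the same 4 pairs, with only the last not past the threshold (adjusted p = 0.24).

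CAV2 by probe 620360 rose in MIA PaCa-2 by 0.43 (adjusted p = 0.018) with sh1209 and by 2.06 (adjusted p = 1.5e-07) with sh1319, and in Capan-1 it fell, at -1.25 (adjusted p = 1.7e-05) and -0.48 (adjusted p = 0.013). Probe 2630577 gave 0.72, 2.03, -1.28 and -0.51, all past the threshold, and probe 5910553 passed with sh1319 in MIA PaCa-2, at 1.16, and with sh1209 in Capan-1, at -0.91. The latter call of probe 5910553 (adjusted p = 0.047) was lost in 10 of the 12 fits that left out 1 array and the former in 2. The sh1319 decreases of CAV2 in Capan-1 did not pass with median scaling. PTRF, which encodes the caveolar coat protein cavin-1, rose in all 4 pairs, by 0.53, 0.45, 0.69 and 0.75, although the MIA PaCa-2 values did not pass with median scaling. AIG1, the nearest relative of ADTRP, rose in MIA PaCa-2 by 0.69 (adjusted p = 0.0026) and 0.95 (adjusted p = 0.00017) and stood at 0.07 and 0.12 in Capan-1 (adjusted p = 0.80 and 0.62), a gene named after its values were seen. The mean hairpin response of both CAV1 probes and of all 3 CAV2 probes differed between the lines in the same direction as that of the TFPI probes.

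**Figure D4:**
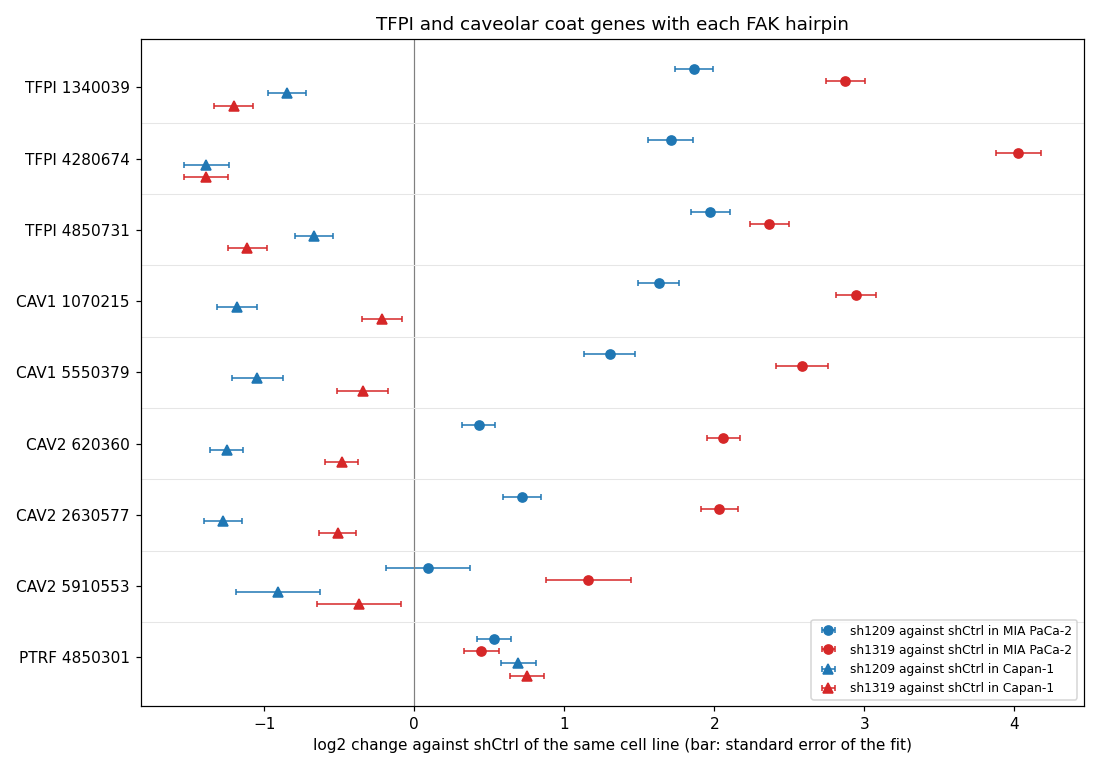
Log2 change against the shCtrl of the same cell line (x axis) for the probes of TFPI, CAV1, CAV2 and PTRF (y axis), with the standard error of the fit as bars. Circles are MIA PaCa-2, triangles Capan-1, blue sh1209 and red sh1319. All MIA PaCa-2 points lie above 0, and the Capan-1 points of TFPI, CAV1 and CAV2 lie below 0 while those of PTRF lie above it.

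The genes most like C6ORF105 were ranked by Pearson's r over the 12 arrays, after each line was centred on its own mean, among 2995 probes whose group means spanned at least 1 log2 unit. JUND, a subunit of the AP-1 transcription factor, came first with r = 0.985, followed by KATNAL1 (0.979), CLDN1 (0.979), EHD1 (0.977) and MORF4L1 (0.975). The arrays share their chip and their hairpin groups, so these values describe the pattern only. CLDN1, which encodes a tight junction protein, had log2 changes against shCtrl of 2.81, 4.29, 1.46 and 1.37 in the 4 pairs. Those of JUND were 1.44, 2.20, 1.10 and 0.74. Around probe 10079 of F3 the closest were ODAM (0.981), ABLIM3 (0.956) and C4ORF18 (0.950), whose changes in MIA PaCa-2 lay between -0.05 and 0.05. In Capan-1 ODAM stood at 0.86 and 1.21, ABLIM3 at 0.93 and 1.37, and C4ORF18 at 0.75 and 1.52.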

How the data were processed

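Starting from 500 ng of RNA per sample, 12 arrays on 1 chip were hybridised, 2 for each of 6 groups of MIA PaCa-2 or Capan-1 cells. Linear probe intensities and detection p-values were deposited by the authors, neither normalized nor background-subtracted. Per the labels these came from GenomeStudio 2011.1. Intensities were background-corrected with limma's nec (normexp, offset 16, which understates changes of dim probes), put on the log2 scale and quantile-normalized. 92 control rows were left out. Of 47228 probes, the 24207 detected at p under 0.05 in at least 2 arrays entered the limma 3.58.1 test (R 4.3.3), which fitted 6 group means and left 6 residual degrees of freedom, with Benjamini-Hochberg adjustment over all probes of a comparison. The array number limits the precision. The fit was tested on simulated data.

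The members, lists and tests were chosen with earlier results of these data known. Named pathway genes are those past the threshold in the same direction in all 4 pairs, or in any pair with a log2 change of at least 1, PTK2, every member, and the 5 and 3 genes most like C6ORF105 and F3 probe 10079. AIG1 was named outside this rule. A bound replaces the fold where a group was never detected. Replicate numbers do not pair the arrays. Alternatives were no background correction, an offset of 50, median scaling, no filter, detection in at least 6 arrays, array weights, a block for the replicate number, leaving out each array and the methods' t-test.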

Additional observations from a re-analysis of the deposited data

Results flagged for a closer look

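The mean response to the FAK hairpins differed between Capan-1 and MIA PaCa-2, by limma's interaction term with an adjusted p under 0.05, for 8 of 11 member probes and for 14 of the 17 other pathway probes named by the rule, against 14.4% of all probes. The latter were named for the size of their changes, and the members were chosen with results of these arrays in view. Neither count is therefore support. Values are the log2 response in Capan-1 minus that in MIA PaCa-2. Among the members they were -1.28 for C6ORF105, 1.18 for F2R probe 4570398, -3.40, -4.26 and -3.06 for TFPI, 0.89 for F3 probe 10079, and -0.67 and -0.62 for F2RL1. F3 and F2RL1 were not detected in MIA PaCa-2, and the F2RL1 differences did not pass with median scaling (adjusted p = 0.39 and 0.53). That of probe 5810047 also did not pass without either shCtrl array of Capan-1 or without shCtrl replicate 1 of MIA PaCa-2.

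Among the anticoagulant proteins the differences were -1.17 for PROCR, -1.01 for ANXA5, and 1.93 and 1.84 for GAS6. Among receptors and G proteins the difference was -1.26 for GNA11, and at the cell surface it was 0.68 for ITGA3. The fit also gave -1.92 for F2RL2, -0.69 for SMPD1 and -1.45 for ITGB4, which are not measured sizes, since none of these was detected with shCtrl in MIA PaCa-2 and F2RL2 in no Capan-1 array. Among the caveolar genes the values were -2.98 and -2.64 for CAV1 and -2.11, -2.27 and -1.27 for CAV2.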

How the results depend on the processing

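Of the 33 changes of member probes against shCtrl, which are described without a test, 19 moved by at least their standard error in the main fit with median scaling, 19 without background correction and 14 with an offset of 50. Median scaling moved the median change of all probes to 0.11 with sh1319 in Capan-1, and the higher share of called probes to 85.3% there and 81.7% with sh1209. It left 12 pathway probes with sh1209 in MIA PaCa-2, 9 with sh1319 in Capan-1 and 1 member between the Capan-1 hairpins, and PTK2 at -0.42 with sh1209 in Capan-1. The methods' t-test after Benjamini-Hochberg adjustment left 0 in every pair and in both hairpin comparisons. Leaving out 1 array gave 13 to 21, 19 to 29, 14 to 21 and 6 to 16 pathway probes, lowest without sh1209 replicate 1 and sh1319 replicate 1 in MIA PaCa-2, without replicate 2 of shCtrl or of sh1209 in Capan-1, and without sh1319 replicate 1 in Capan-1. It gave 3 to 4 and 1 to 2 members between the hairpins of MIA PaCa-2 and Capan-1, and 7 to 9 for the difference between lines. For F2R probe 7160743 the sign turned when 1 array was left out, over -0.042 to 0.13 and -0.070 to 0.012 between the hairpins of MIA PaCa-2 and of Capan-1 (0.051 there with median scaling) and -0.11 to 0.066 for the difference between lines. For TFPI probe 4280674 between the Capan-1 hairpins the value was 0.016 with median scaling and -0.090 to 0.082 without 1 array.

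Replicate numbers did not pair the arrays, since replicate differences correlated between groups at -0.06 to 0.16 with a median of 0.00. With the replicate block the F3 probe 10079 difference between the Capan-1 hairpins passed, at an adjusted p of 0.035, and the Capan-1 changes of GNA12 with sh1319 and CAV2 probe 5910553 with sh1209 did not, at 0.051 and 0.058. The cause was not tested. Signal near background limits C6ORF105 in MIA PaCa-2 with shCtrl, TFPI probe 4280674 in Capan-1, F3 and F2RL1 in MIA PaCa-2, and TFPI2 and THBD.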
